A study of Mus musculus with 2 samples.

Results

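The chemokine axis described here comprises 4 of the 32285 genes in the count files: Cxcl12, its receptors Cxcr4 and Ackr3, and Cx3cl1. The genes were chosen by symbol as parts of the chemokine system, with earlier results of these data known. Cx3cl1 encodes a ligand of another receptor, CX3CR1. All 4 were read in Cajal-Retzius (CR) cells, taken as barcodes with at least 2000 unique molecular identifiers (UMIs) and at least 5 UMIs of Reln. That rule kept 1003 of 1011 barcodes of at least 2000 UMIs in the control library and 390 of 406 in the knockout library. Within them, cells were also divided by whether they held a UMI of Cck, of Grik1, or of Chst8 or Alkal2.

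Both libraries were made from tdTomato-positive, DAPI-negative cells sorted from the hippocampus of mice at postnatal day 14 and run on the 10x Chromium 3′ platform. The control pool held 4 littermates, 3 males and 1 female, of the genotype ΔNp73-Cre;Cic flox/+ with a Cre-dependent tdTomato reporter, so the control cells carry Cre and 1 floxed allele of Cic. The knockout pool held 4 littermates, 2 males and 2 females, of the genotype ΔNp73-Cre;Cic flox/flox with the same reporter. Cic encodes Capicua, a transcriptional repressor, and ΔNp73-Cre acts in the CR lineage from the embryo onward. By staining, the study found the protein deleted from most but not all hippocampal CR cells of this line. The knockout cells may thus include some that keep it. With 1 library per genotype there is no replicate error: every interval below is a 95% exact interval of counting error alone, no difference between genotypes was tested, and genotype cannot be told apart from pool, sex mix or library.

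CR cells are early-born neurons that settle in the marginal zone and along the hippocampal fissure, secrete reelin, and mostly die during the first weeks after birth. CXCL12 is a secreted chemokine made by the meninges and by several brain cells. It signals through CXCR4, a G protein-coupled receptor that holds CR cells beneath the meninges as they spread over the embryonic cortex, while ACKR3 binds and removes CXCL12 without coupling to G proteins. CX3CL1 is a membrane-bound chemokine of neurons that is shed by proteases and read by CX3CR1 on microglia.

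Levels are given as counts per 1000000 UMIs (CPM), leaving out mitochondrial and ribosomal protein genes, and are not divided by gene length because 3′ tags count a transcript once whatever its length. All 8 listed CR markers (Reln, Trp73, Lhx1, Lhx5, Calb2, Ebf3, Ndnf and Nhlh2) were detected in at least 25% of cells in both libraries. For Reln this was fixed by the rule that chose the cells. Slc1a2 of the astrocyte list (35.5% and 32.8% of cells) and Rgs5 of the mural list (31.8% and 30.3%) also passed that mark. Of the lists for other neural cells, the GABAergic one summed to 7 UMIs in control and 2 in knockout cells. The astrocyte list summed to 155 CPM in control and 145 CPM in knockout cells, mostly from Slc1a2 (92.7 and 83.2) and Sox9 (52.9 and 56.0), and the granule and pyramidal list to 72.4 and 80.6. The median depth was 6224 UMIs per control cell and 6664 per knockout cell, and no cell barcode occurred in both libraries. Cic itself stood at 58.9 CPM (53.2 to 65.1) in control cells and 51.3 (43.2 to 60.5) in the knockout cells, a ratio of 0.871 (0.714 to 1.06). A 3′ tag that lies outside the deleted part says nothing about the deletion, so these counts do not check the genotype labels.

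The promoters of the ligand and of its signalling receptor are printed for reference, since the study removed a DNA-binding repressor. Each line gives the 250 bases before the RefSeq start site on GRCm38.p6, 5′ to 3′ on the gene's own strand, with capitals on GC boxes (GGGCGG on either strand) and TATA boxes (TATAAA on either strand). Overlapping matches run together. The Cxcl12 stretch is chr6:117168285-117168534 on the plus strand and the Cxcr4 stretch is chr1:128592300-128592549 on the minus strand.
Cxcl12: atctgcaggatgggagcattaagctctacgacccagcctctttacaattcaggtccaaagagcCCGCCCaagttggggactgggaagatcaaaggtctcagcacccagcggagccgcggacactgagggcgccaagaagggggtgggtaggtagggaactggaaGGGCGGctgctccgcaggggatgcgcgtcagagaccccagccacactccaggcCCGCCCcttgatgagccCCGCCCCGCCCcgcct
Cxcr4: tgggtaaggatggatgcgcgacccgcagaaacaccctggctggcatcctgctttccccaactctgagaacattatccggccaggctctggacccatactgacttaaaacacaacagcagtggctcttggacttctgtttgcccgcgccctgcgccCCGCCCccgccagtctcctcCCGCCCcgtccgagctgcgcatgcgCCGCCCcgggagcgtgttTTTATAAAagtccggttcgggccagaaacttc
The Cxcl12 window of 300 bases, which runs 50 bases past the start, held 5 GC boxes and 0 TATA boxes. That of Cxcr4 held 3 GC boxes and 2 overlapping TATA matches, the sense match beginning 30 bases before the start. Those of Ackr3 and Cx3cl1 held 1 of each, with the TATA match beginning at -8 and -6 from the start. Of 32851 promoters of the same length, 35.7% held a GC box and 13.6% a TATA box. The octamers bound by Capicua (TGAATGAA, TGAATGGA, TCAATGAA and TCAATGGA, either strand) occurred in 3.84% of these promoters and in 0 of the 4 members' windows, which says only that these letters are not in these 300 bases.

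Cxcl12 was the most abundant member and stood higher in the knockout cells. It gave 2278 UMIs in control cells and 1390 in the knockout library, or 345 CPM (331 to 360) against 503 (476 to 530). The counting intervals of the 2 libraries did not overlap, and the ratio of knockout to control was 1.46 (1.36 to 1.56). By UMIs, Cxcl12 ranked 363rd among the genes of the control cells and 211th in the knockout cells. The gene (ENSMUSG00000061353) lies on chromosome 6 from 117168535 to 117181367, plus strand, and its 3 coding transcripts in GENCODE M21 (GRCm38, as for all positions given) end at 3 different positions that the counts pool.

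The difference fell just short of the 1.5-fold mark set for naming a change, and no member passed it. Of 9442 genes with at least 100 UMIs over both libraries, 4.40% lay past 1.5-fold in either direction, and 3.37% had a ratio as high as that of Cxcl12. The median ratio over these genes was 1.00. Most of them held fewer UMIs than Cxcl12, which ranked 363rd in control and 211th in knockout cells. Counting error therefore spreads their ratios more widely.

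Markers of other cells that border the brain's surface and vessels were read beside Cxcl12. The fibroblast and meningeal list summed to 9.39 CPM in control and 17.0 CPM in knockout cells, with Col1a2, Lum and Slc6a13 at 0 in both libraries and Col1a1 giving 56 of 62 and 46 of 47 UMIs. The endothelial list of 6 genes summed to 34.4 CPM in control and 29.3 CPM in knockout cells, of which Pecam1 gave 31.2 and 28.6, with Cldn5, Cdh5, Kdr and Ly6c1 at 7 UMIs or fewer in control and at 0 in knockout cells. The mural list of 6 genes summed to 83.5 and 77.4 CPM, of which Rgs5, found in 31.8% and 30.3% of cells, gave 81.0 and 75.9, with Kcnj8 and Acta2 at 0 in both libraries. Of these 3 sums the fibroblast and meningeal one was higher in the knockout, and the part of such cells in the Cxcl12 counts was not tested.

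Higher Cxcl12 in the knockout library was spread over many cells. A control cell held a median of 2 Cxcl12 UMIs and at most 17, and a knockout cell a median of 3 and at most 28. The share of cells with 5 or more UMIs was 14.4% in control cells and 28.7% in the knockout, and the share with none was 23.4% and 15.9%. The top 101 control cells held 34.8% of the Cxcl12 UMIs and the top 39 knockout cells held 33.1%, a like concentration in the richest 1 of every 10 cells. With every cell thinned to 2000 UMIs, 43.6% of control cells (40.5 to 46.7) and 51.3% of knockout cells (46.2 to 56.3) kept a Cxcl12 UMI. Droplets of 20 to 100 UMIs carried a Cxcl12 UMI in 2.00% of cases in the control (median depth 89 UMIs) and 1.44% in the knockout (median 44). These shares rest on far fewer UMIs per barcode than those of the thinned cells. Per UMI, the droplets held 283 Cxcl12 CPM in the control and 392 in the knockout, a ratio of 1.38 (1.25 to 1.53). The droplet ratios of Cxcr4 and Cx3cl1 were 1.20 (0.948 to 1.53) and 1.39 (0.952 to 2.04). The 8 control barcodes of at least 2000 UMIs with fewer than 5 Reln UMIs (median 3157) carried 0 Cxcl12 UMIs. Of the 16 such knockout barcodes (median 3038), 3, or 18.8%, carried 1 UMI each.

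**Figure D1:**
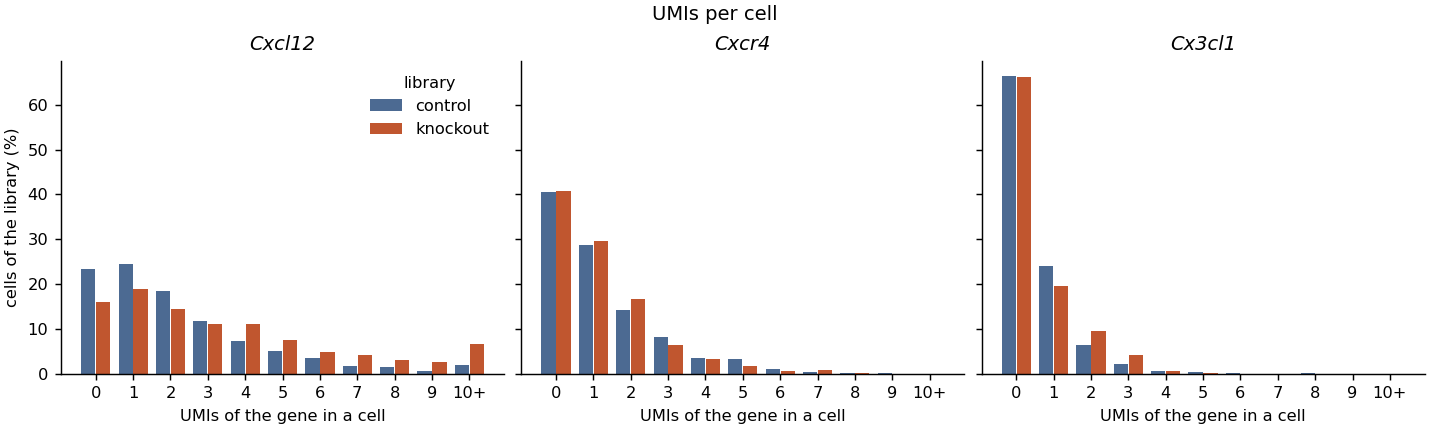
Share of cells (%, y axis) at each number of UMIs of the gene (x axis, the last bin holding 10 or more) for Cxcl12, Cxcr4 and Cx3cl1 in the control and knockout libraries. The Cxcl12 bars of the knockout library are lower at 0 to 3 UMIs and higher from 4 UMIs on, while those of Cxcr4 and Cx3cl1 start at nearly the same share of cells without a UMI.

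Cxcr4, the signalling receptor, was the next most abundant and was somewhat lower in the knockout cells. It gave 1233 UMIs in control cells and 448 in the knockout, or 187 CPM (176 to 197) against 162 (147 to 178). The ratio was 0.867 (0.777 to 0.967), and 17.5% of the 9442 genes had a ratio as low. The share of cells with a Cxcr4 UMI was 59.5% and 59.2% at full depth, and 29.8% (27.0 to 32.7) and 24.9% (20.7 to 29.5) after thinning. The gene (ENSMUSG00000045382) lies on chromosome 1 from 128588199 to 128592293, minus strand.

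Ackr3, the scavenging receptor, was all but undetected in CR cells. It gave 1 UMI in 1 of 1003 control cells, a share of 0.0997% (exact binomial interval 0.00252 to 0.554). It gave 0 UMIs in 390 knockout cells, and taking 3 counts as the limit for a count of 0, up to 0.769% of cells could hold an Ackr3 UMI at this depth, or up to 1.08 CPM. This is a limit on cells with a UMI and not on cells that express the gene. The 16 knockout barcodes of at least 2000 UMIs with fewer than 5 Reln UMIs, whose ependymal and choroid markers summed to 66944 CPM, held 2 Ackr3 UMIs in 2 barcodes, so the gene could be counted in this library. The gene (ENSMUSG00000044337) lies on chromosome 1 from 90203980 to 90216751, plus strand, and no ratio is given for it.

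Cx3cl1, the membrane-bound ligand, stood at 73.5 CPM (67.1 to 80.3) in control cells and 76.3 (66.3 to 87.3) in the knockout. These came from 485 and 211 UMIs. The ratio was 1.04 (0.879 to 1.22), so a difference between the libraries was not detectable at this depth, and the interval leaves room for one of up to 1.22-fold. The share of cells with a UMI was 33.6% and 33.8% at full depth and 12.1% and 12.6% after thinning. The gene (ENSMUSG00000031778) lies on chromosome 8 from 94772009 to 94782427, plus strand.

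The order of the levels was thus Cxcl12, Cxcr4, Cx3cl1 and Ackr3 in both libraries, and no interval of one member reached that of its neighbour in either library.

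Of the 3 classes, the cells positive for Cck, the gene of the neuropeptide cholecystokinin, were the richest in Cxcl12. In the control library the 324 Cck-positive cells held 482 Cxcl12 CPM (454 to 511) and the 679 negative cells 273 (257 to 289), a ratio of 1.77 (1.63 to 1.92). In the knockout library the 110 positive cells held 694 (637 to 754) and the 280 negative cells 425 (397 to 455), a ratio of 1.63 (1.46 to 1.82). Past 1.5-fold, 1 of the 3 members with enough UMIs was found in each library, Cxcl12, against 5.07% of 8304 genes in control cells and 8.27% of 5226 genes in the knockout. Median depth was nearly the same in positive and negative cells, at 6397 and 6148 UMIs in the control.

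The level of Cxcl12 was also higher the more Cck UMIs a cell held. Cck UMIs were counted at full depth here, and the part of depth in this rise was not tested. Control cells with 0, 1, 2 to 4, and 5 or more Cck UMIs held 273, 417, 480 and 591 Cxcl12 CPM. Knockout cells of the same groups held 425, 553, 761 and 781, the last from 17 cells and with an interval of 661 to 917 that covers the value before it. The knockout value was above the control value in all 4 groups, with ratios of 1.56, 1.32, 1.59 and 1.32. None of their counting intervals reached 1, but these leave out the spread between cells. Over all cells, the variance of Cxcl12 UMIs per cell was 2.68 times the mean in the control and 3.76 times in the knockout. Cck-positive cells made up 32.3% (29.4 to 35.3) of the control and 28.2% (23.8 to 33.0) of the knockout cells. Weighted to the control mix, the ratio was 1.49.

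**Figure D2:**
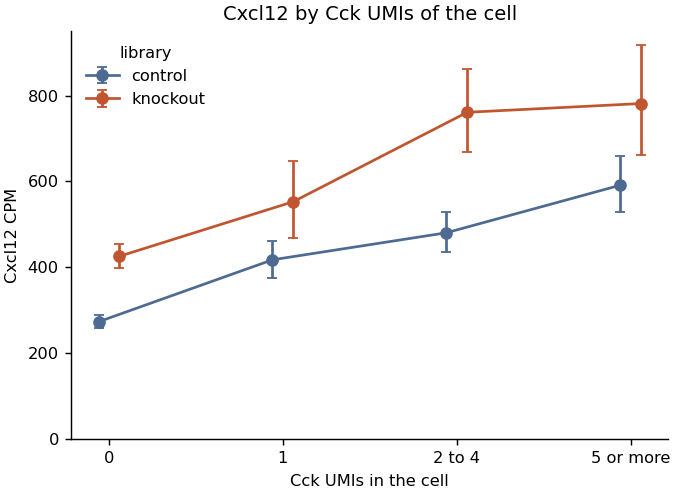
Cxcl12 CPM (y axis) in cells with 0, 1, 2 to 4, or 5 or more Cck UMIs (x axis) in the control and knockout libraries, with 95% exact Poisson intervals. Cxcl12 climbs from 273 to 591 in control cells and from 425 to 781 in the knockout, which lies above the control in every group.

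At full depth, Cxcr4 and Cx3cl1 were not divided in this way by Cck. Cxcr4 stood at 172 CPM in Cck-positive and 195 in negative control cells (ratio 0.882, 0.780 to 0.995), and at 168 and 159 in knockout cells (1.06, 0.857 to 1.30). Cx3cl1 stood at 76.5 and 71.9 in the control (1.06, 0.879 to 1.29) and at 75.4 and 76.6 in the knockout (0.984, 0.717 to 1.34). In the cells with 5 or more Cck UMIs, however, Cx3cl1 reached 109 CPM in each library, from 58 and 21 UMIs (intervals 82.6 to 141 and 67.7 to 167).

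Grik1, which encodes the GluK1 subunit of kainate receptors, marked cells low in Cx3cl1. The 194 Grik1-positive control cells held 47.2 Cx3cl1 CPM (36.4 to 60.1) and the 809 negative cells 80.4 (72.9 to 88.5), a ratio of 0.587 (0.445 to 0.763). In the knockout library the 70 positive cells held 48.5 (31.7 to 71.0) and the 320 negative cells 83.0 (71.4 to 95.8), a ratio of 0.584 (0.372 to 0.884). Cx3cl1 was the 1 of 3 members past 1.5-fold in each library, against 6.83% of genes in control cells and 7.94% in the knockout. Only 26 UMIs lie behind the knockout value, which was 0.680 when cells were thinned to 2000 UMIs and 0.392 with only positivity read after thinning. At full depth, Cxcl12 was level across this division. It stood at 348 and 344 CPM in the control (ratio 1.01, 0.913 to 1.12). In the knockout it stood at 515 and 500 (1.03, 0.899 to 1.18). Cxcr4 stood at 187 in both groups of control cells (ratio 0.998, 0.867 to 1.15) and at 183 and 157 in the knockout (1.16, 0.921 to 1.46).

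Cells positive for Chst8, a sulfotransferase of N-linked sugars, or Alkal2, a ligand of the ALK receptor, were high in Cx3cl1 and, less evenly, low in Cxcl12. Cx3cl1 stood at 106 CPM (90.7 to 123) in 232 positive and 62.8 (56.0 to 70.2) in 771 negative control cells, a ratio of 1.69 (1.39 to 2.04). In the knockout it stood at 108 (85.9 to 134) in 91 and 64.3 (53.7 to 76.4) in 299 cells, a ratio of 1.68 (1.26 to 2.23), which was 1.38 after thinning and 1.68 with only positivity read after thinning. Reading Chst8 by itself, the Cx3cl1 ratio was 2.05 (1.65 to 2.54) in control cells and 1.41 (0.962 to 2.02) in the knockout, and reading Alkal2 by itself 1.45 (1.16 to 1.81) and 1.63 (1.19 to 2.21). In cells of this class that lacked Cck and Grik1, Cx3cl1 reached 125 CPM in control cells and 129 in the knockout, its highest among the exclusive groups in each library.

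Cxcl12 stood at 289 CPM (264 to 317) in Chst8- or Alkal2-positive and 363 (347 to 381) in negative control cells, a ratio of 0.796 (0.718 to 0.882). The knockout cells stood at 336 (296 to 380) and 565 (533 to 599), a ratio of 0.594 (0.517 to 0.681), which was 0.705 after thinning and 0.573 with only positivity read after thinning. Past 1.5-fold were therefore 1 member in the control, Cx3cl1, against 6.42% of genes, and 2 in the knockout, Cx3cl1 and Cxcl12, against 8.08% of genes. Cxcr4 stood at 168 and 193 in the control (0.872, 0.760 to 0.999) and at 127 and 175 in the knockout (0.721, 0.570 to 0.906), but these ratios moved with the way depth was handled. They were 1.05 and 0.943 once cells were thinned to 2000 UMIs, 1.02 and 0.402 with only positivity read after thinning, and 0.884 and 0.554 with positivity at 2 or more UMIs. Positive cells were the deeper ones here, with medians of 6720.5 against 6059 UMIs in control cells and 7869 against 6361 in the knockout. The values above are scaled to depth, but a class read from 1 UMI is easier to reach in a deep cell.

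**Figure D3:**
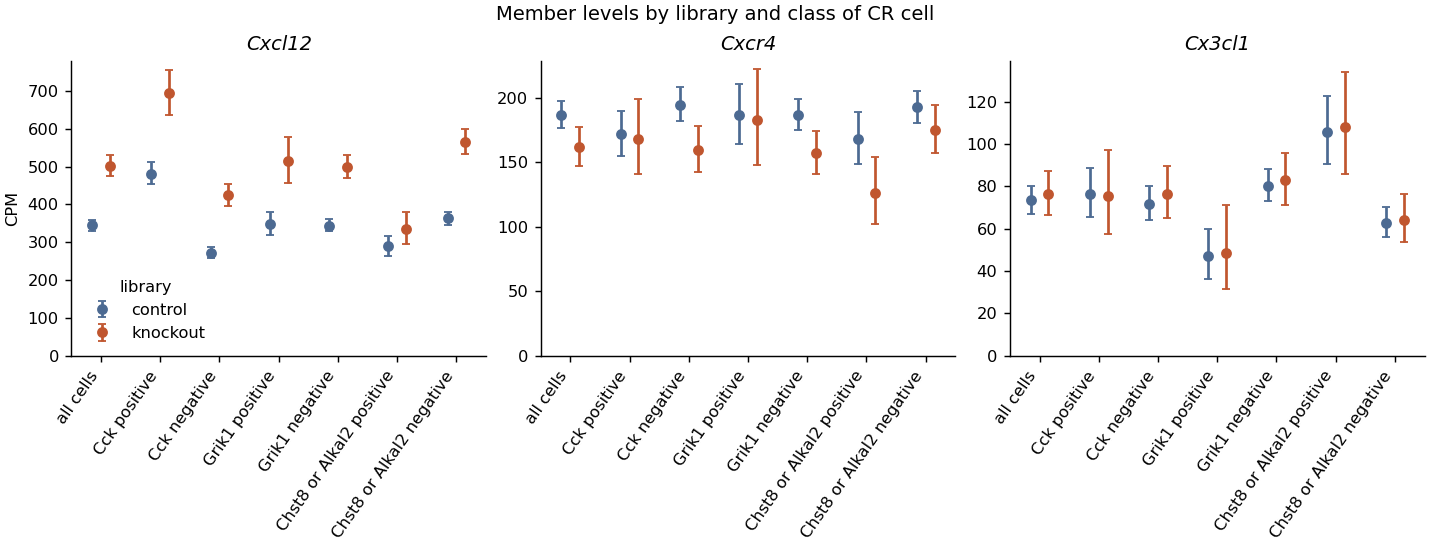
CPM (y axis, from 0) of Cxcl12, Cxcr4 and Cx3cl1 in all cells and in cells positive or negative for Cck, Grik1, and Chst8 or Alkal2 (x axis), with 95% exact Poisson intervals, 1 point per library. Cxcl12 is highest in Cck-positive cells and Cx3cl1 in Chst8- or Alkal2-positive cells in both libraries, while Cxcr4 stays between 127 and 195.

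The ratio of knockout to control for Cxcl12 was not the same size in every class, though these differences were not tested. It was 1.44 (1.30 to 1.60) in Cck-positive and 1.56 (1.43 to 1.71) in Cck-negative cells, and 1.48 and 1.45 in Grik1-positive and -negative cells. In Chst8- or Alkal2-positive cells it was 1.16 (0.993 to 1.36), against 1.56 (1.44 to 1.68) in the cells without either gene. Cells with no UMI of any class gene, 387 of the control and 173 of the knockout library, gave 1.68 (1.497 to 1.89). Cells positive for Grik1 alone gave 1.84 (1.503 to 2.25) and those positive for Chst8 or Alkal2 alone 1.06 (0.831 to 1.34), from 103 knockout UMIs. Reading Chst8 by itself, Cxcl12 stood at 301 CPM in control and 271 CPM in knockout cells, a ratio of 0.900 (0.706 to 1.14) and the one below 1 among the groups compared. Among all groups compared, Cxcr4 was furthest from its control level in Chst8-positive cells, at 171 CPM in 118 control and 85.6 CPM in 37 knockout cells (0.499, 0.327 to 0.740), the latter from 31 UMIs, with median depths of 6845.5 and 8955 UMIs per cell.

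The pools differed in their mix of sexes, so the members were also read by sex. Xist without a Y-linked UMI was found in 227 cells of the control pool, which held 1 female, and in 176 knockout cells, and a Y-linked UMI without Xist in 702 and 194. Cxcl12 was higher in the knockout in both sexes, at 335 and 552 CPM in the Xist cells (ratio 1.65, 1.46 to 1.86) and 344 and 455 in the Y-linked cells (1.32, 1.20 to 1.45). Cxcr4 was lower in the Xist cells, at 201 and 140 (0.693, 0.570 to 0.840), and nearly level in the Y-linked cells, at 180 and 174 (0.969, 0.838 to 1.12). Cx3cl1 stood at 58.5 and 76.7 (1.31, 0.966 to 1.78) and at 77.8 and 79.8 (1.03, 0.824 to 1.27). The sexes are also different animals, so sex and animal cannot be told apart.

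The class patterns of Cxcl12 were of uneven size within the sexes. Cck-positive over negative cells gave 1.92 (1.60 to 2.31) in Xist and 1.76 (1.59 to 1.94) in Y-linked control cells, and 1.30 (1.11 to 1.52) and 1.98 (1.69 to 2.32) in those of the knockout. All 4 ratios were above 1. Chst8- or Alkal2-positive over negative cells gave 1.03 (0.818 to 1.28) and 0.755 (0.668 to 0.851) in the control, and 0.658 (0.542 to 0.793) and 0.565 (0.457 to 0.693) in the knockout, so the lower Cxcl12 of this class was not seen in the Xist cells of the control. For Cx3cl1 the same division gave 1.94 and 1.65 in the control and 1.42 (0.902 to 2.19) and 1.88 in the knockout.

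Cells with at least 1.5% of UMIs in nuclear respiratory chain genes, 102 of the control and 41 of the knockout library, were lower in Cxcr4. They held 131 Cxcr4 CPM against 198 in the remaining control cells (ratio 0.661, 0.550 to 0.789), and 117 against 171 in the knockout (0.682, 0.504 to 0.906). Their median depth was 13182 UMIs in control cells and 13104 in the knockout, against 6224 and 6664 over all cells. The part of depth in the lower Cxcr4 was not tested, and the share of all genes past 1.5-fold was not computed for this division. Cxcl12 in these cells was 0.937 of the level elsewhere in control cells and 0.843 in the knockout. Cx3cl1 was 0.748 (0.562 to 0.980) of its level in the remaining cells in control and 1.17 (0.814 to 1.66) in knockout cells, and knockout over control within these cells was 1.52 (0.997 to 2.29), from 41 and 61 UMIs. Without them the ratio of knockout to control was 1.48 for Cxcl12 and 0.867 for Cxcr4.

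**Figure D4:**
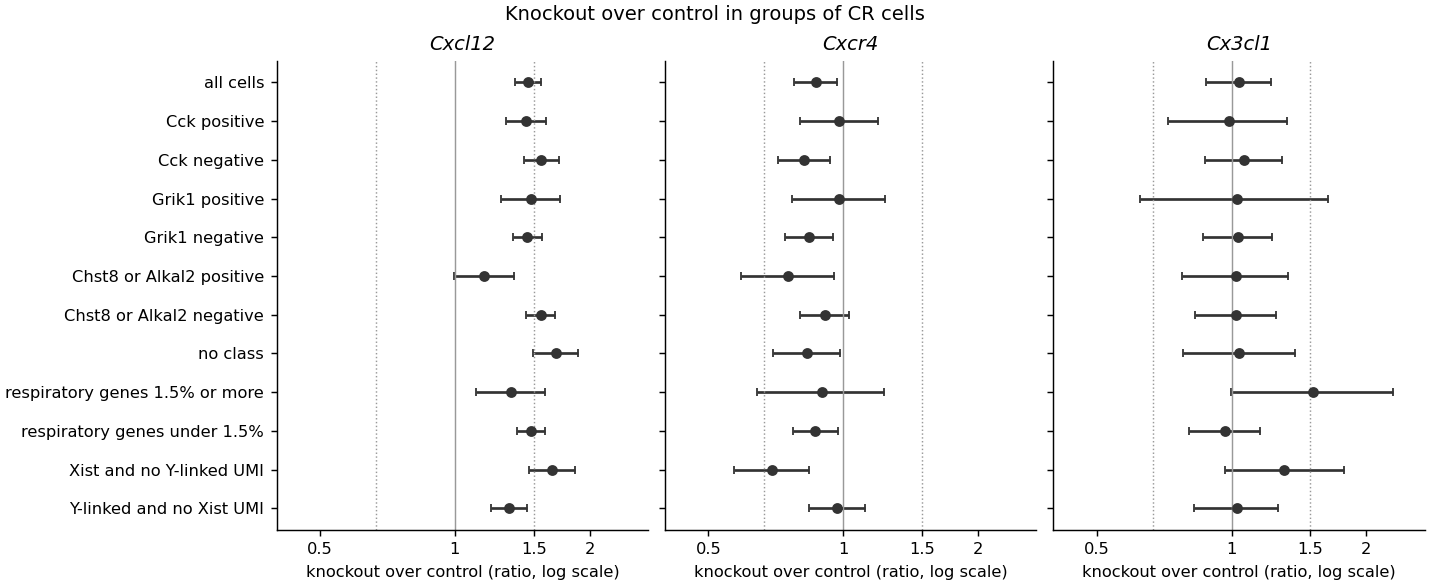
Ratio of knockout to control (x axis, log scale) for Cxcl12, Cxcr4 and Cx3cl1 in all cells and in 11 groups of cells (y axis), with 95% exact intervals. The solid line marks 1 and the dotted lines 1.5-fold in either direction. All Cxcl12 points lie above 1, the lowest at 1.16 in Chst8- or Alkal2-positive cells, and all Cxcr4 points lie below 1, the lowest at 0.693 in Xist cells.

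Cxcr4 was found about as often in cells with a Cxcl12 UMI as in cells without one. At 2000 UMIs per cell, 30.0% of 437 control cells with a Cxcl12 UMI also held one of Cxcr4, against 29.7% of 566 cells without Cxcl12. In the knockout these shares were 25% of 200 and 24.7% of 190 cells. At this thinned depth 13.1% of control cells and 12.8% of knockout cells held both. Over 901 control cells outside the respiratory-gene-high group, the Pearson correlation of log(1 + UMIs per 10000) between Cxcl12 and Cxcr4 was -0.0095, and over 349 knockout cells it was 0.080, values that share each cell's depth.

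By the same measure, the gene whose pattern was most like that of Cxcl12 among 7364 genes in control cells was Cck, with r = 0.321 in control cells and 0.274 in the knockout. Cacna2d3 (0.264 and 0.176), Nrg1 (0.249 and 0.354), Pnoc (0.228 and 0.279) and Gfra1 (0.215 and 0.310) came next, encoding a calcium channel subunit, neuregulin 1, the nociceptin precursor and a receptor of GDNF. In the knockout library Nrg1 ranked 2nd, Gfra1 3rd, Pnoc 10th, Cck 11th and Cacna2d3 61st. Cx3cl1 was most like Chst8 (0.248 and 0.044), Rgs7bp (0.187 and 0.226), Dclk1 (0.187 and 0.122), Cdk14 (0.176 and 0.182) and Scg2 (0.167 and 0.041). Rgs7bp, which tethers RGS proteins to the membrane, ranked first for Cx3cl1 in the knockout, where Chst8 did not stand out. No gene went with Cxcr4 beyond r = 0.136, reached by Mrap2 (0.094 in the knockout), with Rabac1, Gm42418 and AY036118 at 0.117 to 0.128 in control cells and -0.010 to 0.038 in the knockout. In counts this sparse, correlations of that size are no finding. The counts of Cx3cl1 were sparser still, so its list calls for the same caution. In the knockout its 5 genes ranked 1st (Rgs7bp), 16th (Cdk14), 159th (Dclk1), 1674th (Chst8) and 1766th (Scg2).

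The rest of the chemokine system was counted over 100 listed genes, of which 99 are in the files. CR cells held no UMI of 31 of them, under 100 UMIs of 34, and 100 or more of the other 34. Of these 34, 1 was past 1.5-fold higher in the knockout and 0 lower, against 4.40% of all genes in either direction.

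That gene was Penk, which encodes proenkephalin, whose opioid peptides bind ACKR3. Penk stood at 36.4 CPM (31.9 to 41.3) in control cells and 77.4 (67.4 to 88.5) in the knockout, a ratio of 2.13 (1.76 to 2.57). The ratio was 1.46 in Xist cells and 2.54 in Y-linked cells. Like Cxcl12, Penk was higher in Cck-positive cells, 59.4 against 24.1 CPM in control cells and 134 against 54.3 in the knockout. A long non-coding transcript on the opposite strand, A830012C17Rik, overlaps the gene.

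Mif, Ubb and Hmgb1, of the same list of ligands and partners of CXCR4 and ACKR3, lay within 1.5-fold. Mif, a cytokine that binds CXCR4, stood at 152 and 157 CPM. Ubb, a source of ubiquitin, stood at 1310 and 1229, and Hmgb1, which binds CXCL12, at 189 and 183. Their ratios ran from 0.938 to 1.03.

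Among further chemokines, CR cells held Cxcl1, Ccl27a and Ccl25. Cxcl1, a ligand of CXCR2, stood at 56.5 CPM in control cells and 51.7 in the knockout (ratio 0.915, 0.749 to 1.11). The ratio was 1.29 in Xist cells and 0.657 in Y-linked cells. Ccl27a stood at 93.3 and 101 (1.08) and Ccl25 at 36.2 and 28.9 (0.799, 0.612 to 1.03). Ccl27a is counted under 3 gene IDs that share its symbol and overlaps Il11ra1, and Ccl25 overlaps Elavl1, so these counts are uncertain. Of the 13 other CXC and CX3C ligands in the files 8 had no UMI, and of the 21 CC and XC ligands also 8.

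Of 21 other chemokine receptors, 10 had no UMI and 2 reached 100 UMIs. Ackr1 stood at 26.5 and 20.2 CPM (ratio 0.764, 0.555 to 1.04), but lies on the same strand as Cadm3, a neuronal adhesion gene that overlaps it. Cx3cr1, the receptor of CX3CL1, stood at 13.3 and 9.04 (0.678, 0.417 to 1.07), and spans several other genes on both strands. Of the 9 microglial markers, which include Cx3cr1, C1qb and C1qc were at 0 in the control cells and 5 were at 0 in the knockout cells, with a summed level of 63.5 and 61.8 CPM. The part of overlapping genes in the counts of Ackr1 and Cx3cr1 was not tested.

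Of the 13 listed carriers and proteases, 7 reached 100 UMIs over both libraries, 4 held fewer and 2 had no UMI. Gpc1, the glypican 1 heparan sulfate proteoglycan, stood at 366 and 457 CPM (1.25, 1.16 to 1.34) and Sdc3, a neuronal syndecan, at 64.7 and 80.3 (1.24, 1.05 to 1.46). Sdc1 stood at 48.8 and 44.5 and Sdc2 at 62.6 and 60.7. The sheddases of CX3CL1 stood at 95.0 and 87.5 for Adam10 and at 23.3 and 20.97 for Adam17, and Mmp14, a membrane protease that can cleave CXCL12, at 26.2 and 23.5. None of these 7 genes was past 1.5-fold.

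Of the 23 genes of receptor signalling and desensitization, 17 had 100 or more UMIs and 0 passed 1.5-fold, with ratios from 0.772 to 1.31 and a median log2 ratio of 0.02. Among the 12 with the most UMIs, Gnao1, Rgs4 and Itch led with 363, 153 and 145 CPM in control cells and 347, 145 and 153 in the knockout. Ptk2, Elmo1, Pak1, Grk3, Stam, Rac1, Arrb1 and Gnai2 followed at 68.8 to 116 in control cells and 75.6 to 133 in the knockout, and Grk2 stood at 40.6 and 41.2. Gnao1 and the Gnai genes encode the inhibitory G protein subunits that CXCR4 couples to, the Grk and Arrb genes its kinases and arrestins, and Itch the ubiquitin ligase that sorts it for degradation.

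**Figure D5:**
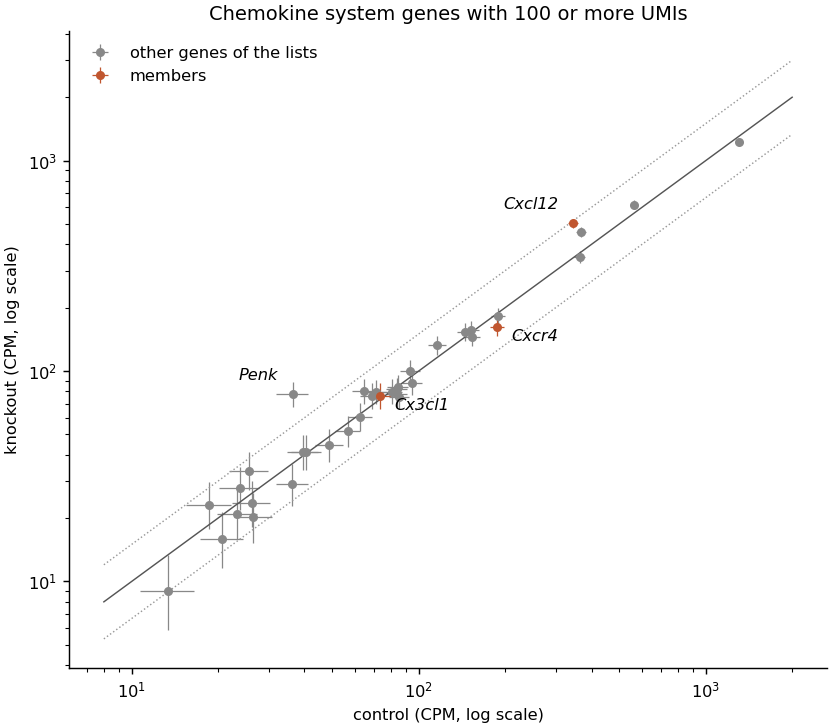
CPM in the control (x axis, log scale) and knockout (y axis, log scale) for the 3 members and 34 other genes of the chemokine system with at least 100 UMIs, with 95% exact Poisson intervals. The solid line marks equal levels and the dotted lines 1.5-fold. Penk lies above the upper dotted line at 36.4 and 77.4, and Cxcl12 just below it.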

How the data were processed

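Single-cell RNA-seq data were read as raw UMI counts. The authors deposited counts per gene and barcode, for all barcodes, with no normalization; per the file headers they came from Cell Ranger, and the submitters' processing notes name Cell Ranger 8.0.1 and mm39, while the study's methods name another version and an mm10 reference, so the build is unsettled and positions come from GENCODE M21 (GRCm38), which held 32158 of the 32285 gene IDs. Whether introns or strand were counted is not given in the sources used here. Members and lists were chosen with earlier results of these data known.

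UMIs were summed over cells and scaled to 1000000 UMIs outside 192 mitochondrial and ribosomal protein genes. Ratios carry 95% exact intervals for Poisson counts, and shares exact binomial (Clopper-Pearson) ones; amplified reads were collapsed to UMIs, and intervals cover counting error only. A count of 0 is given as a limit of 3 counts. Cells are not replicates, so no test between genotypes was run. A change was named past 1.5-fold, for genes with at least 100 UMIs. Named genes were the members, list genes with at least 100 UMIs (at most 12 per list) and the 5 genes most correlated with each member among genes in at least 10% of control cells. A gene that this rule names is not reported here. Cells held 2012 to 31769 (control) and 2769 to 33453 UMIs (knockout), and the libraries 16336796 and 6777071 UMIs in all. No doublets were removed; removal by Scrublet score was an alternative, as were other depth, Reln, scaling, quality, thinning and free RNA settings. Scripts used Python 3.11.15, NumPy 2.4.6, SciPy 1.17.1 and scanpy 1.11.5. The ratio intervals were tested on simulated Poisson counts, which hold no spread between cells.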

Additional observations from a re-analysis of the deposited data

Results flagged for a closer look

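Several contrasts lay on opposite sides of 1 in the 2 libraries, and none of these differences between libraries was tested. Cxcl12 in Xist cells over Y-linked cells was 0.974 (0.878 to 1.08) in control cells and 1.21 (1.09 to 1.35) in the knockout. Cxcr4 under the same division was 1.12 (0.977 to 1.28) in control cells and 0.801 (0.655 to 0.977) in the knockout. Cxcr4 in Cck-positive over negative cells was 0.882 and 1.06, and in Grik1-positive over negative cells 0.998 and 1.16, in control cells and the knockout. Cx3cl1 in Cck-positive over negative cells was 1.06 and 0.984. Cx3cl1 in cells with at least 1.5% of UMIs in respiratory chain genes over the other cells was 0.748 and 1.17.

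Cxcl12 was also higher in the knockout library outside the cells. Droplets of 20 to 100 UMIs held 283 Cxcl12 CPM (261 to 306) in the control library against 392 (370 to 415), a ratio of 1.38 (1.25 to 1.53). The droplet ratio was 1.39 (0.952 to 2.04) for Cx3cl1 and 1.20 (0.948 to 1.53) for Cxcr4. The intervals of these 2 genes include 1. Reln went the other way, at 957 CPM in the control droplets and 880 in those of the knockout. Whether the droplet difference is particular to Cxcl12 was not tested. In these droplets Cxcl12 lay at 283 against 345 in control cells, while Cxcr4 lay at 52.3 against 187 and Reln at 957 against 8176. Taking off each droplet pool's mean per cell left the Cxcl12 ratio of the cells at 1.46. That mean was 0.935% of the mean Cxcl12 count of a control cell and 0.441% of that of a knockout cell. A subtraction this small could hardly move the ratio, so the part of free RNA was not tested.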

How the results depend on the processing

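Of 279 recomputed ratios of 21 contrasts, 262 stayed within the counting interval of the reported ratio and 17 left it, 7 crossed the 1.5-fold mark, and 15, of contrasts whose reported ratio lay between 0.872 and 1.06, crossed 1. Some settings could hardly move a ratio, so the 262 include checks with little power. Removal by Scrublet score kept 995 of 1003 control and 389 of 390 knockout cells, and the median ratio used as a divisor was 1.00. No ratio past 1.5-fold changed its direction. Ackr3 gave no ratio under any setting. In Xist cells alone the knockout over control ratio was 1.65 for Cxcl12, 0.693 for Cxcr4 and 1.31 for Cx3cl1, and in Y-linked cells alone 1.32 for Cxcl12 and 0.969 for Cxcr4. With cells thinned to 2000 UMIs, positive over negative cells gave 1.05 for Cxcr4 in Chst8 or Alkal2 cells and 1.37 for Cx3cl1 in Cck cells of the control, and 1.24 for Cxcl12 in Grik1 cells, 0.705 for Cxcl12 and 0.943 for Cxcr4 in Chst8 or Alkal2 cells of the knockout. With only positivity read after thinning, these were 1.02 and 1.34 in the control, and in the knockout 1.27 for Cxcl12 and 1.5 for Cxcr4 in Grik1 cells and 0.402 for Cxcr4 in Chst8 or Alkal2 cells. The last was 0.554 with positivity at 2 or more UMIs, and Cxcl12 in Grik1 cells of the knockout was 1.18 under quality limits. The causes were not tested. Shares at full depth were 76.6% and 84.1% of control and knockout cells for Cxcl12, 59.5% and 59.2% for Cxcr4 and 33.6% and 33.8% for Cx3cl1. Weighting to the control mix of Cck groups was added after the data were seen. No paired analysis was possible because each genotype is 1 library, and no library could be left out. Counts under 100 UMIs limit Cx3cl1 in the knockout classes and in Grik1-positive control cells (65 UMIs). They also limit Cxcr4 in Grik1-positive (98) and Chst8- or Alkal2-positive (96) knockout cells.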

Other observations

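Barcodes of at least 500 and under 2000 UMIs, 191 in the control and 51 in the knockout, were not counted as cells. They held 839 Cxcl12 CPM (698 to 1000) in the control library against 1019 (731 to 1383), and 386 and 348 of Cxcr4, both above the levels in the cells. Cx3cl1 stood at 67.7 and 124 there, from 10 and 5 UMIs, and Ackr3 at 0 UMIs in both.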
